A study of Homo sapiens with 12 samples.

Results

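The miR-183 cluster is a group of 3 microRNA (miRNA) hairpins, and its 5p products, hsa-miR-182-5p, hsa-miR-183-5p and hsa-miR-96-5p, were followed by name through the extracellular vesicles of 6 cell lines. They are 3 of the 1636 mature miRNAs in the count table. Small RNA was sequenced from vesicles that cells of the lines Car-1, HT55, Hutu80, MDST8, RCM-1 and SW1116, all labelled CRC (colorectal cancer), shed into medium with fetal bovine serum, with 2 libraries per line and 12 in all. No line carried a treatment or an engineered allele, each group is a single line, and no label used here ties a line to consensus molecular subtype 2 or 4, so lines and not subtypes were compared. No label tells if a line's pair of libraries stems from independent cultures, and the p-values thus reflect only how far such pairs lie apart, a spread that could be technical.

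The 3 hairpins are transcribed together, cut from a common primary RNA and trimmed to mature strands of which the 5p arm is the one usually retained. A miRNA finds its target messenger RNAs mainly through its seed, bases 2 to 8 from its 5′ end, and lowers their output. The cluster is known for its high expression in sensory cells of the eye and inner ear, and it is raised in many carcinomas, colorectal ones among them. Its seeds are alike, and miR-182-5p and miR-96-5p are known to repress FOXO1, a transcription factor that restrains growth.

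The hairpins lie on the minus strand of chromosome 7 (GRCh38, GENCODE 29), MIR183 at 129774905 to 129775014, MIR96 at 129774692 to 129774769 and MIR182 at 129770383 to 129770492, so that MIR183 is transcribed first. MIR183 and MIR96 are 135 bases apart, and MIR96 and MIR182 4199 bases. The 4632 bases they span overlap no other annotated gene and are therefore intergenic, with NRF1 and UBE2H as the nearest coding genes (13300 and 55717 bases away). All 3 mature sequences were found in the RefSeq table (GRCh38.p14). They are shown with the seed in capitals, because miR-96-5p had far fewer counts than the others while all 5′ ends are nearly alike:
miR-182-5p: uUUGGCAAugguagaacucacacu
miR-183-5p: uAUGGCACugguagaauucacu
miR-96-5p: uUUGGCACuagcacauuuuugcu
miR-1271-5p: cUUGGCACcuagcaagcacuca

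All 3 members carry UGGCA at bases 3 to 7, which 10 of 2370 human mature miRNAs in that table do (0.422%). Counted from 1 at the 5′ end, the seeds of miR-182-5p and miR-96-5p differ only by A8C, and those of miR-183-5p and miR-96-5p only by A2U. The seed of miR-182-5p differs from that of miR-183-5p by U2A and A8C. The message sites that pair with the seeds are therefore UUGCCAA for miR-182-5p, GUGCCAU for miR-183-5p and GUGCCAA for miR-96-5p. Over the whole mature sequence, seed included, miR-182-5p and miR-183-5p are identical at 18 of 22 aligned positions, and miR-182-5p and miR-96-5p at 12 of 23. No other miRNA in the table has the seed of miR-182-5p or of miR-183-5p. The seed of miR-96-5p is shared with miR-1271-5p (chromosome 5, plus strand, 176367960 to 176367981), a miRNA from outside the cluster.

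Total counts ran from 71831 to 622800 per library, and 318 miRNAs passed the filter on low counts, all 3 members among them. Levels are counts-per-million values (CPM). They are given unscaled (over the library total) or scaled by trimmed-mean factors (TMM), which ran from 0.641 to 1.46 and correct for libraries whose total is taken up by a few miRNAs. Differences are log2 values, each followed by ± its standard error (SE). The test was the quasi-likelihood F-test of edgeR on the counts, with p-values adjusted over all 318 miRNAs (Benjamini-Hochberg, threshold 0.05). All 6 gut epithelial marker miRNAs fixed for checking the label (miR-192-5p, miR-194-5p, miR-215-5p, miR-375-3p, miR-200c-3p and miR-141-3p) had counts, with a summed level from 4243.7 to 5096.3 CPM in the libraries of MDST8, the lowest line, and from 85561.7 to 120303.6 CPM in those of RCM-1.

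The members were unequal in the vesicles. Over the 12 libraries miR-182-5p gave 97190 counts, 68.6% of the counts of the 3, miR-183-5p gave 44402 (31.3%) and miR-96-5p gave 126 (0.0889%). miR-182-5p ranked 8 of the 318 tested miRNAs by mean scaled CPM (32188.9), miR-183-5p ranked 16 (15019.5) and miR-96-5p ranked 265 (40.1). Pooled, there were 771 counts of miR-182-5p and 352 of miR-183-5p for each count of miR-96-5p, which lies between them in the primary RNA. Together the 3 took 2.14% to 6.91% of a library's counts, least in RCM-1 replicate 2 and most in Hutu80 replicate 1. miR-182-5p had more counts than miR-183-5p, and miR-183-5p more than miR-96-5p, in 12 of 12 libraries. Capture and ligation can favour some sequences, so a ratio between 2 miRNAs of a library is a ratio of counts and not of molecules.

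The 3p arms of the same hairpins were near the limit of detection and were not tested. miR-182-3p had 23 counts in 7 of 12 libraries, 0.0237% of the counts of its hairpin (95% interval 0.015 to 0.0355, exact Clopper-Pearson). miR-183-3p had 33 counts, also in 7 libraries, 0.0743% of its hairpin (0.0511 to 0.104). miR-96-3p had 0 counts in every library, which allows up to 2.88% of its hairpin (upper end of the 95% interval). Intervals here and below cover counting error only. In these vesicles nearly all reads of the 2 abundant hairpins were thus of the 5p arm. The seed relative miR-1271-5p had 10 counts in 7 libraries, fewer than miR-96-5p.

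miR-182-5p differed among the lines. Scaled levels were 51105.2 and 43810.7 CPM in MDST8, 43239.2 and 51184.7 in SW1116, and 36485.8 and 35578.1 in Hutu80. In HT55 they were 38690.4 and 22607.0, in RCM-1 18387.1 and 15180.3, and in Car-1 13434.4 and 16564.1. In scaled CPM every library of the first 4 lines named lay above every library of RCM-1 and Car-1. The HT55 pair was the widest, its upper library above both of Hutu80. Unscaled, HT55 replicate 2 (23509.7 CPM) lay below Car-1 replicate 2 (24048.0 CPM). In bulk vesicle RNA, fewer vesicles that carry a miRNA and less of it per vesicle cannot be told apart. The test across the 6 lines gave an adjusted p of 2.32e-05. At the threshold of 0.05, 68.2% of all tested miRNAs passed, so the call itself does not set the miRNA apart.

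Against the mean of the other 5 lines, miR-182-5p was higher in MDST8 (0.84 ± 0.21, adjusted p = 0.0017) and in SW1116 (0.83 ± 0.21, 0.00313). It was lower in Car-1 (-1.16 ± 0.24, 0.000558) and in RCM-1 (-0.96 ± 0.24, 0.00259). Differences in Hutu80 (0.36 ± 0.21, 0.195) and HT55 (0.08 ± 0.22, 0.862) did not pass. Without SW1116 replicate 2 the SW1116 difference was 0.75 and no longer passed (0.0808), and without RCM-1 replicate 2 the RCM-1 difference was -0.85 (0.0729). Such a fit lends the line's lone library the spread of the rest.

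miR-183-5p, the first hairpin of the transcript, had the same lower lines, RCM-1 and Car-1, but another order among the 4 upper ones. Scaled levels were 21141.7 and 25139.4 CPM in SW1116, 21746.5 and 13749.3 in HT55, and 17858.4 and 15337.5 in MDST8. In Hutu80 they were 17745.1 and 14849.4, in RCM-1 9432.2 and 8347.1, and in Car-1 6778.2 and 8109.6. Here too the libraries of RCM-1 and Car-1 lay below all others. The test across lines gave an adjusted p of 0.000114. Against the other 5 lines it was higher in SW1116 (0.88 ± 0.20, adjusted p = 0.00159) and lower in Car-1 (-1.09 ± 0.24, 0.0008) and RCM-1 (-0.78 ± 0.23, 0.00899).

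In MDST8, where miR-182-5p was higher, the difference of miR-183-5p was 0.30 ± 0.21 and did not pass (adjusted p = 0.258). It did pass without Car-1 replicate 2 (0.54, 0.0169). The HT55 difference of 0.42 ± 0.21 (0.162) also passed without Car-1 replicate 2 (0.49, 0.0465) and without HT55 replicate 2 (0.86, 0.0265). Conversely, the call in SW1116 was lost without SW1116 replicate 2 (0.79, 0.0595). That in RCM-1 was lost when either RCM-1 library was left out, replicate 1 (-0.84, 0.0826) or replicate 2 (-0.72, 0.128).

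**Figure D1:**
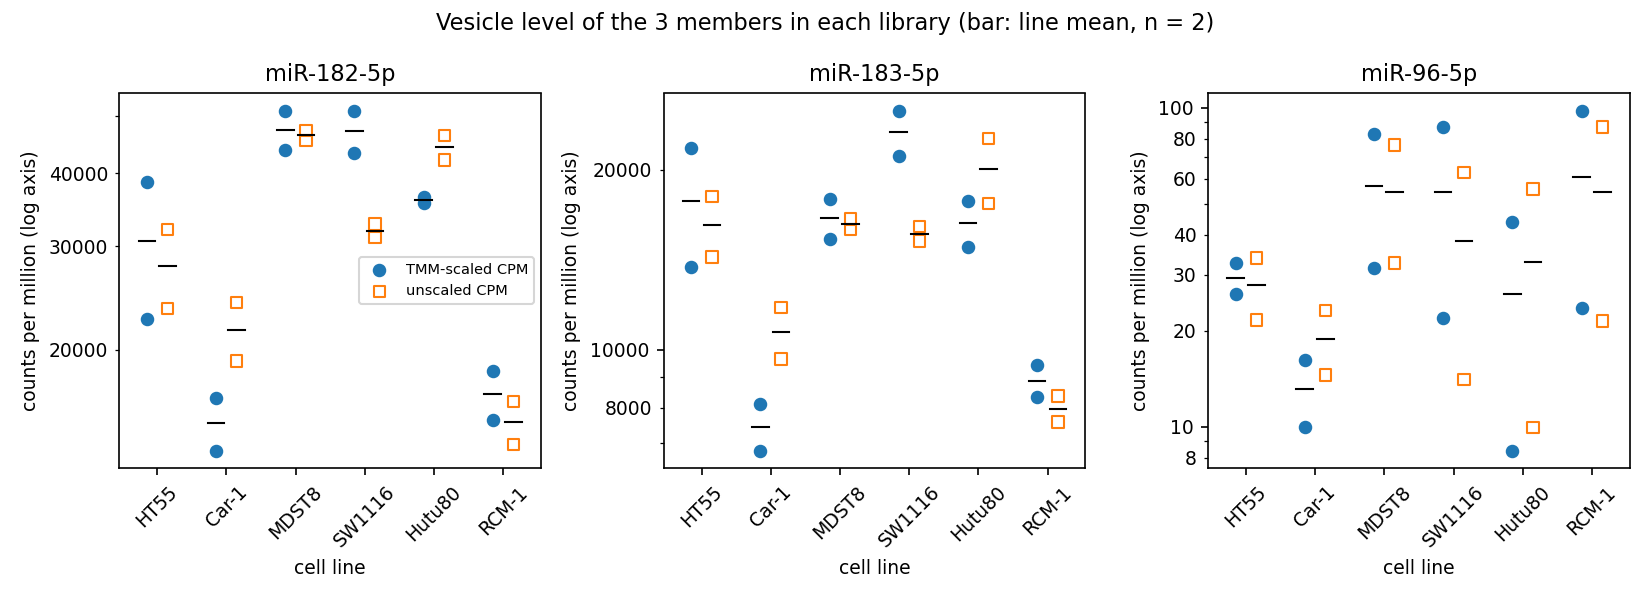
Level of each member in each library by cell line, in CPM on log axes that differ between panels. Filled circles are TMM-scaled and open squares unscaled values, and bars are line means (n = 2). For miR-182-5p and miR-183-5p the scaled values of Car-1 and RCM-1 sit below those of every other line, while the 2 libraries of a line are far apart for miR-96-5p in MDST8, SW1116, Hutu80 and RCM-1.

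miR-96-5p, the middle hairpin, could not be ordered. Its counts were 26 and 10 in MDST8, 39 and 7 in SW1116, and 15 and 8 in RCM-1. They were 4 and 1 in Hutu80, 3 and 7 in HT55, and 4 and 2 in Car-1. In scaled CPM the line means ran from 13.1 ± 4.42 (SD, n = 2) in Car-1 to 60.9 ± 52.6 in RCM-1, so in RCM-1 the SD was nearly as large as the mean. No difference across lines passed the test (adjusted p = 0.349). None of its 6 line differences or 15 pairs passed, with 0 at an unadjusted p below 0.05 in edgeR and 0 pairs called in DESeq2 or limma-voom. The 2 libraries of a line differed beyond counting error in SW1116, with 95% Poisson intervals of unscaled CPM of 44.5 to 85.6 in replicate 1 and 5.65 to 28.9 in replicate 2. In RCM-1 they were 48.7 to 143.6 and 9.27 to 42.3, and these also did not overlap.

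**Figure D2:**
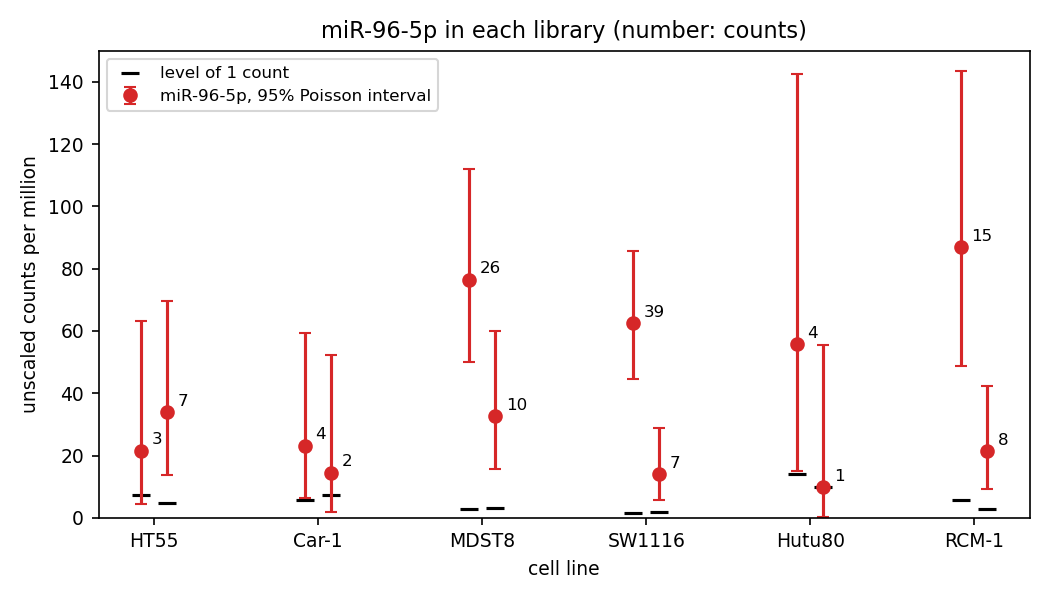
miR-96-5p in each library in unscaled CPM, with its 95% Poisson interval (bars, counting error only), the number of counts beside each point and the level that a single count gives (black dashes). Within SW1116 (39 and 7 counts) and RCM-1 (15 and 8 counts) the intervals of the 2 libraries do not overlap.

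All 15 pairs of lines were then compared to see which neighbours in the order differ. For miR-182-5p 8 of 15 pairs passed and for miR-183-5p also 8, where 32.9% of all miRNA and pair combinations passed. They were the same 8 pairs: each of HT55, MDST8, SW1116 and Hutu80 was higher than each of Car-1 and RCM-1. In the main edgeR fit (TMM, filtered miRNAs, all libraries), no pair within the upper 4 lines passed for either miRNA. Neither did RCM-1 against Car-1 (0.16 ± 0.28 for miR-182-5p and 0.26 ± 0.28 for miR-183-5p, both higher in RCM-1). The largest fold was MDST8 against Car-1 for miR-182-5p (1.66 ± 0.29, 3.16-fold, adjusted p = 7.82e-05). For miR-183-5p it was that of SW1116 against Car-1 (1.64 ± 0.29, 3.11-fold, adjusted p = 7.2e-05). Without RCM-1 replicate 2, miR-183-5p lost the pairs of RCM-1 with HT55 (adjusted p = 0.134), MDST8 (0.081) and Hutu80 (0.137), leaving 5. miR-182-5p then lost those with HT55 (0.232) and Hutu80 (0.0669). With library totals miR-182-5p also passed within the upper lines, lower in HT55 than in MDST8 (-0.74, 0.0197) and Hutu80 (-0.67, 0.0398). It then lost Car-1 against HT55 (0.279) and SW1116 (0.0612). For miR-182-5p DESeq2 called 9 pairs, and TMM without the 10 most abundant miRNAs called 10. Its pairs numbered 11 without Car-1 replicate 1, 12 without Car-1 replicate 2 and 11 with no filter.

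The members called in each line were set beside the share of all tested miRNAs called in that direction. In SW1116 2 of 3 members were higher (17.6% of all tested miRNAs were), and in MDST8 1 of 3 (22%). In Car-1 2 of 3 were lower (13.5% of all tested) and in RCM-1 2 of 3 (14.8%). In HT55 and Hutu80 no member passed.

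The spread over lines was smaller than that of the median tested miRNA. The highest line mean was 3.16 times the lowest for miR-182-5p and 3.11 times for miR-183-5p, against a median of 6.01 over the 318 tested miRNAs. On log2 scaled CPM the range of line means was 1.67 for miR-182-5p and 1.64 for miR-183-5p, against a median of 2.36, and 28.9% and 26.7% of tested miRNAs had a smaller one. Among the miRNAs next to miR-182-5p in mean level, miR-200c-3p, an epithelial miRNA, ranged 25.6-fold, miR-222-3p 6.55-fold and miR-30a-5p 39.4-fold. The other neighbour, let-7f-5p, ranged 1.32-fold. Next to miR-183-5p, miR-200b-3p ranged 38.9-fold, miR-1246 13.7-fold, miR-221-3p 3.80-fold and miR-26a-5p 1.94-fold.

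**Figure D3:**
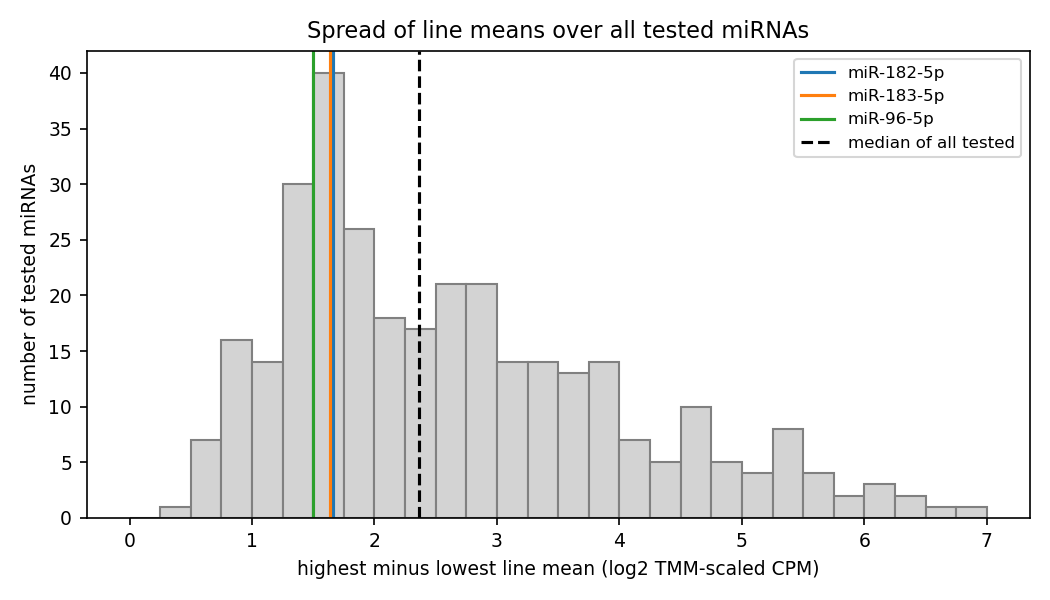
Number of tested miRNAs (bars) by the range of their 6 line means in log2 TMM-scaled CPM. The 3 members (coloured lines, none above 1.67) lie to the left of the median of all 318 tested miRNAs (dashed line, 2.36).

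The ratio of miR-183-5p to miR-182-5p within a library does not depend on how libraries are scaled, and it differed among the lines. It was 0.349 and 0.350 in MDST8, 0.489 and 0.491 in SW1116, and 0.505 and 0.490 in Car-1. In Hutu80 it was 0.486 and 0.417, in RCM-1 0.513 and 0.550, and in HT55 0.562 and 0.608. MDST8 lay lowest, below the range of 0.417 to 0.608 of the 10 other libraries, and HT55 highest. The libraries of SW1116 and Car-1 interleaved, and pairs of lines were not tested for the ratio. The 95% interval in MDST8 replicate 1 was 0.339 to 0.360 (exact Clopper-Pearson), and the lowest interval elsewhere, in Hutu80 replicate 2, was 0.395 to 0.441. Line means differed by up to 1.67-fold, against 3.16-fold and 3.11-fold for the levels of the 2 miRNAs. An exact permutation test of the F statistic on log2 ratios, over all 10395 ways to put 12 libraries into 6 pairs, gave p = 0.000192 (0.000577 adjusted over 3 ratios), where the smallest possible p is 9.62e-05. Without MDST8, chosen after its values were seen, the 5 other lines still differed (exact permutation p = 0.00212, adjusted 0.00635).

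**Figure D4:**
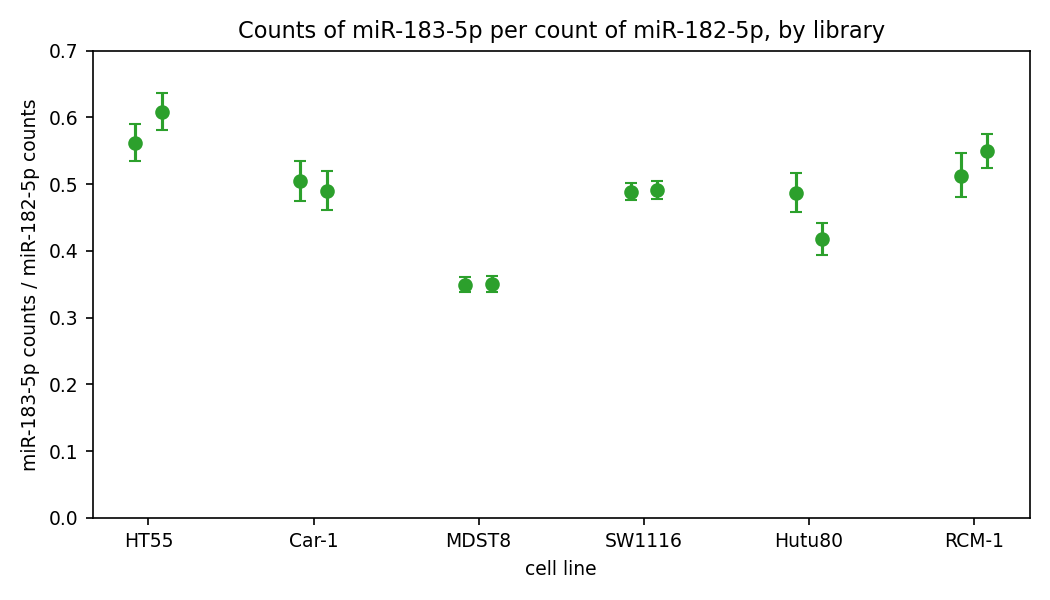
Counts of miR-183-5p per count of miR-182-5p in each library by cell line, with 95% exact intervals (bars, counting error only). Both MDST8 libraries sit at 0.349 and 0.350, below the 10 others, and both HT55 libraries sit at 0.562 and 0.608.

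The ratios that involve miR-96-5p did not pass the test across the lines. Per 1000 counts of miR-182-5p there were from 0.236 counts of miR-96-5p in Hutu80 replicate 2 to 5.33 in RCM-1 replicate 1, whose intervals were 0.00598 to 1.32 and 2.98 to 8.81. The exact permutation test gave p = 0.586 for miR-96-5p over miR-182-5p and p = 0.572 over miR-183-5p (0.586 adjusted for both). Within RCM-1 alone the ratio to miR-182-5p was 5.33 and 1.56 per 1000. As a description over the 12 libraries, the scaled log2 levels of miR-182-5p and miR-183-5p had a Pearson r of 0.94 (0.94 over the 6 line means, and 0.92 unscaled). Those of miR-96-5p had an r of 0.29 with each of them (0.46 with miR-182-5p and 0.42 with miR-183-5p over line means, and 0.05 and -0.01 unscaled). These values share their libraries, their depth and their scaling factors. The levels of miR-96-5p rest on 1 to 39 counts per library, and the part of counting error in its r was not tested.

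The scaling decided the calls in some lines and not in others. With library totals as the only scaling, miR-182-5p was at 46412.9 ± 1345.9 CPM (SD, n = 2) in MDST8, 44282.3 ± 3035.0 in Hutu80, 31927.6 ± 1186.5 in SW1116, 27808.6 ± 6079.5 in HT55, 21591.4 ± 3474.2 in Car-1 and 15052.5 ± 1798.6 in RCM-1. SW1116 thus moved below Hutu80. For miR-183-5p Hutu80 moved from the fourth place to the first (20083.7 ± 3531.4) and SW1116 from the first to the fourth (15647.0 ± 631.2). Differences against the other lines in SW1116 fell to 0.16 for miR-182-5p (adjusted p = 0.508) and 0.21 for miR-183-5p (0.413), and both miRNAs became higher in Hutu80 (0.74, 0.00187 and 0.65, 0.00773). In Car-1 the difference of miR-182-5p shrank to -0.51 (0.047) and that of miR-183-5p to -0.44, which did not pass (0.0916). In RCM-1 both calls held (-1.14 and -0.96), as did that of miR-182-5p in MDST8 (0.81). In HT55 the difference of miR-182-5p, never called, changed sign between scalings (-0.07 with library totals, 0.08 with TMM).

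A scaling factor multiplies every miRNA of a library alike, so it moves the members together with all others. With library totals the median difference of all 318 tested miRNAs shifted by -0.66 in SW1116, 0.63 in Car-1 and 0.35 in Hutu80, relative to TMM. For reference, measured from the median of all tested miRNAs, a value that scaling leaves nearly constant by construction, miR-182-5p stood at 1.04 to 1.07 in SW1116 under all 5 scalings tried (TMM, RLE, upper quartile, library totals, and TMM without the 10 most abundant miRNAs). It stood at -1.19 to -1.14 in Car-1, 1.14 to 1.16 in MDST8, 0.27 to 0.30 in Hutu80 and -0.85 to -0.82 in RCM-1. miR-183-5p stood at 1.08 to 1.12 in SW1116, -1.13 to -1.08 in Car-1, 0.60 to 0.62 in MDST8 and 0.18 to 0.21 in Hutu80.

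**Figure D5:**
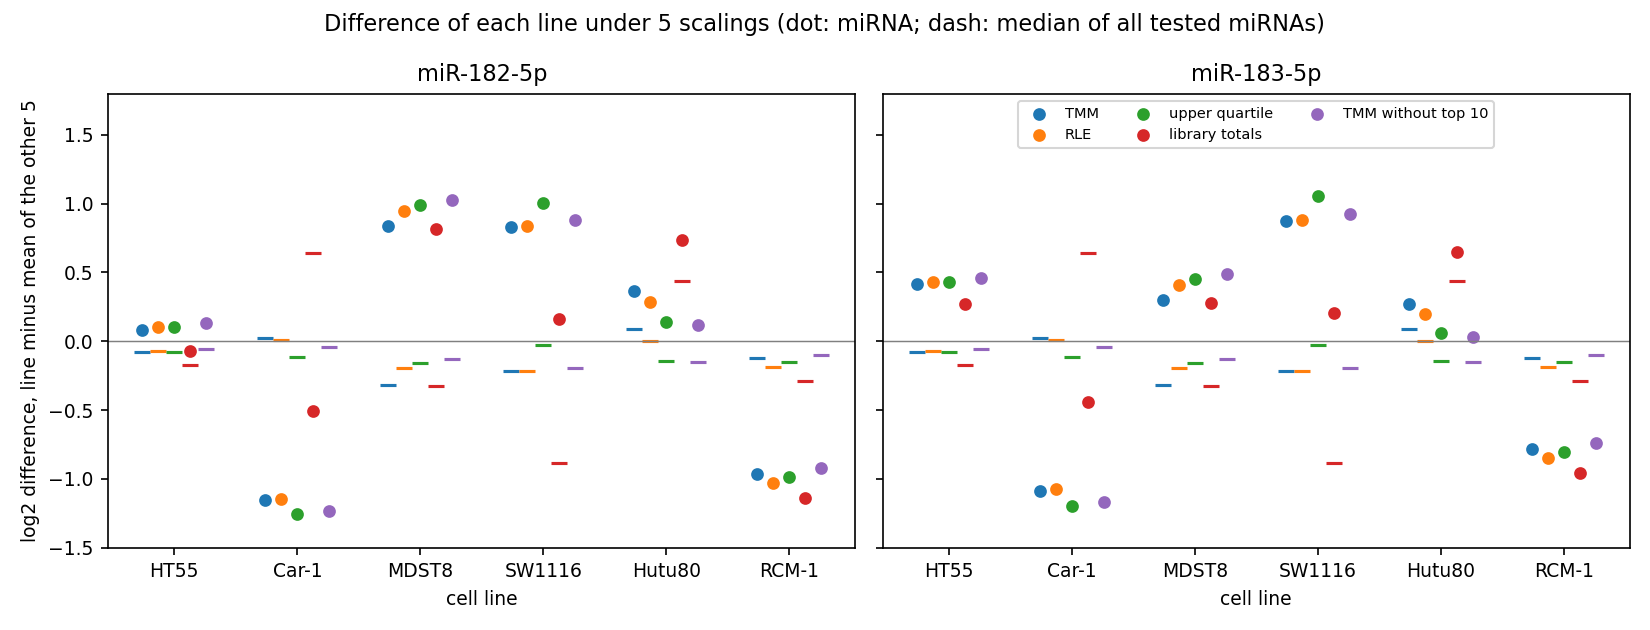
Log2 difference of each line from the mean of the other 5 under 5 scalings (colours) for miR-182-5p and miR-183-5p (dots), with the median of all tested miRNAs under the same scaling (dashes). With library totals (red) dots and dashes move together, up in Car-1 and Hutu80 and down in SW1116.

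Of the 6 tested marker miRNAs of blood cells and serum, 2 differed across lines (33.3%), below the 68.2% of all tested. Counts were found for 7 of 7 (miR-451a, miR-486-5p, miR-144-3p, miR-223-3p, miR-142-3p, miR-150-5p and miR-122-5p), with miR-486-5p, a red cell miRNA, the most abundant. Their summed unscaled level was 5533.2 to 6554.6 CPM in Car-1, 5023.3 to 5802.5 in HT55 and 4177.8 to 5638.2 in Hutu80. It was 2297.7 to 2982.8 in RCM-1, 1844.8 to 2083.3 in MDST8 and 1079.6 to 1759.8 in SW1116. On the same unscaled CPM, the line means of miR-182-5p were, in that order, 21591.4, 27808.6, 44282.3, 15052.5, 46412.9 and 31927.6. In TMM-scaled differences, the median of the 6 tested markers was 0.92 in HT55, 0.48 in Car-1, 0.32 in Hutu80, -0.38 in RCM-1, -0.77 in MDST8 and -0.78 in SW1116. In these lines, in the same order, miR-182-5p differed by 0.08, -1.16, 0.36, -0.96, 0.84 and 0.83. miR-144-3p was not tested, and its 4 counts over all libraries, with 0 in MDST8, SW1116 and RCM-1, are too few to compare lines. Stroma and muscle markers (5 miRNAs, 3 tested) summed to 208.7 to 972.7 CPM per library. The part of these markers in the differences of the cluster was not tested.

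Other miRNAs of related roles gave a background for the cluster. Of 10 tested miRNAs known to be raised in colorectal tumours, 5 differed across lines, below the 68.2% of all tested. In SW1116 2 were higher and 0 lower (56 and 53 of all 318 tested), and in MDST8 2 and 2 (70 and 71). In HT55 the counts were 2 and 2 (44 and 33 of all tested), and in Hutu80 1 and 3 (73 and 53). In the lines where miR-182-5p and miR-183-5p were lower, they were 1 and 2 in Car-1 (67 and 43) and 4 and 0 in RCM-1 (67 and 47). Of the 10 miRNAs, hsa-miR-21-5p was higher in MDST8 (1.25 ± 0.22, adjusted p = 4.95e-05), as miR-182-5p was. hsa-miR-92a-3p was lower in MDST8 (-2.12 ± 0.25, 1.73e-07), and so was hsa-miR-224-5p (-2.71 ± 0.28, 1.42e-08). The median difference of the list was -0.50 in MDST8 and 0.54 in RCM-1, against -0.32 and -0.12 over all tested miRNAs.

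Of 5 other miRNAs known to repress FOXO1, 4 differed across lines, near the 68.2% of all tested. hsa-miR-27b-3p was higher in Car-1 (1.85 ± 0.23, adjusted p = 6.51e-07), a line where miR-182-5p and miR-183-5p were lower. In RCM-1, where these were lower too, the unscaled level of miR-27b-3p was 794.1 CPM, against 5395.0 in Car-1. hsa-miR-27a-3p was higher in MDST8 (1.13 ± 0.26, 0.000879) and in SW1116 (0.73 ± 0.27, 0.039), the lines where miR-182-5p was higher. hsa-miR-9-5p, a neural miRNA, also differed across lines (4.69e-06). This list shares miR-135b-5p with the tumour list and miR-223-3p with the blood markers. The list's median difference was 0.55 in Car-1 and 0.56 in SW1116, against 0.02 and -0.22 over all tested. It was -0.59 in HT55, -0.30 in MDST8, -0.30 in Hutu80 and -0.66 in RCM-1. Over all tested miRNAs it was, in that order, -0.08, -0.32, 0.09 and -0.12. Of the miR-200 family, which marks epithelial cells, all 7 tested miRNAs were higher in SW1116 (56 of all 318 tested were) and in RCM-1 (67 of 318). In HT55 6 of 7 were higher (44 of 318) and in Car-1 3 of 7 (67 of 318), while all 7 were lower in MDST8 (71 of 318) and in Hutu80 (53 of 318). In these lines, in the same order, miR-182-5p differed by 0.83, -0.96, 0.08, -1.16, 0.84 and 0.36. The difference between the 2 groups of miRNAs was not tested.

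The miRNAs with the most similar profile over the 6 line means were found by Pearson correlation of log2 scaled CPM, among the tested miRNAs outside the cluster. For miR-182-5p they were miR-222-5p (r = 0.97), miR-339-3p (0.91), let-7f-5p (0.76), let-7e-5p (0.76) and miR-23a-3p (0.75). For miR-183-5p they were miR-339-3p (0.89), miR-222-5p (0.84), miR-26a-5p (0.83), miR-23a-3p (0.71) and miR-4326 (0.71). For miR-96-5p they were miR-422a (0.97), miR-106b-3p (0.90), let-7g-5p (0.89), miR-29b-3p (0.88) and miR-10b-5p (0.86), and the levels of miR-96-5p behind these rest on 1 to 39 counts per library. miR-222-5p was at 147.0 CPM in MDST8, 114.5 in SW1116, 99.6 in Hutu80, 62.0 in HT55, 33.8 in Car-1 and 30.2 in RCM-1. Of the 5 nearest to miR-182-5p, let-7f-5p and miR-339-3p did not pass across lines (adjusted p = 0.692 and 0.859). The r of miR-183-5p with miR-182-5p was 0.94, above the r of miR-183-5p with any tested miRNA outside the cluster. It was below the r of miR-182-5p with miR-222-5p (0.97).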

How the data were processed

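Small RNA from vesicles of 6 lines was counted in 12 libraries made with a protocol that adds unique molecular identifiers, per the labels' protocols. The deposited count table gives whole-number counts per mature miRNA, not normalised. The authors' second table holds log2 values, equal to log2(CPM + 1) of those counts (largest difference 5e-14). hg38 is the build that the submitters' processing notes name. Which aligner and miRNA annotation served, and if identifiers were collapsed, is stated in none of the sources used here.

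Of 1636 miRNAs, filterByExpr in edgeR 4.0.16 kept 318 (99.7% of counts). One model over all libraries (TMM, glmQLFit with robust estimation, line as the only factor) gave the test across lines, each line against the other 5, and 15 pairs. The SE is the difference divided by the square root of F. Ratios used counts plus 0.5. Procedures were tested on simulated data. Alternatives were 4 other scalings, 2 filters, DESeq2 1.42.0, limma 3.58.1 (voom and trend), a replicate block, and each library left out. The members, the lists and the naming rule (members, their 3p arms, seed relatives, the 5 most alike, 3 per list, neighbours in abundance) were chosen with earlier results of these data known.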

Additional observations from a re-analysis of the deposited data

How the results depend on the processing

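miR-96-5p had 1 to 39 counts per library, and its libraries within SW1116 and RCM-1 differed beyond counting error; the part of depth in its missing call was not tested. Across the 6 lines miR-182-5p and miR-183-5p passed and miR-96-5p did not in all 22 alternative fits, and the ratio of miR-183-5p to miR-182-5p passed in all 16. With library totals miR-182-5p differed by 0.165 in SW1116 (no longer called) and 0.735 in Hutu80 (now called), and miR-183-5p by 0.209 in SW1116 and -0.441 in Car-1 (no longer called) and 0.645 in Hutu80 (now called), with 5 of 15 pairs called against 8. When limma-trend was run on the authors' log2 table, which has the same scaling, the values were 0.174 and 0.739 for miR-182-5p and 0.217, -0.447 and 0.636 for miR-183-5p. The median of all tested miRNAs moved by a like amount, as a per-library scaling must make it (-0.66 in SW1116, 0.63 in Car-1, 0.35 in Hutu80). Leaving out a library gave 0.752 to 1.01 for miR-182-5p in SW1116 and -1.15 to -0.851 in RCM-1. For miR-183-5p it gave 0.794 to 1.05 in SW1116, -0.958 to -0.714 in RCM-1, 0.0726 to 0.856 in HT55, 0.226 to 0.540 in MDST8 and 5 to 9 pairs. The replicate block (adjusted p across lines 1.66e-05 for miR-182-5p and 8.36e-05 for miR-183-5p) changed none of the calls of the members, and same-numbered libraries share only a number (r of their deviations -0.23 to 0.27 over 15 pairs of lines, median 0.06). With the replicate block, ratios of miR-183-5p to miR-182-5p gave an adjusted exact p of 0.000577.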
